A study of Mus musculus with 10 samples.

Results

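C1qa, C1qb, C1qc, Apoe, Lyz2, Spp1 and Aif1 are transcribed at high levels by macrophages, and their reads stood out in libraries of regulatory T cells (Tregs) sorted from mouse colon tumours. These 7 genes, of 54532 in the gene count table, were chosen by name because they differed between the tumour libraries and the controls in the same counts. Their difference between the groups is therefore a description with no test. Tregs are CD4 T cells that depend on Foxp3, a transcription factor, and keep other immune cells in check. They were sorted as CD45+ CD3+ CD4+ CD25+ GFP+ cells, and their RNA was read by Smart-seq2, which copies whole transcripts from small amounts of RNA. The Tumor group held 5 libraries of cells from colon tumours of mice with the genotype Apc Min/+ and the Foxp3 DTR allele. Apc Min/+ mice carry a truncated copy of Apc, a brake on Wnt signalling, in every cell and form intestinal tumours. The WT group held 5 libraries of colon cells from Foxp3 DTR mice with the genotype label WT, so the Foxp3 DTR allele, which places a diphtheria toxin receptor under the control of Foxp3, was common to both groups. All mice were males of the C57BL/6 strain aged 16 weeks. The labels do not state whether each library was a different animal. Each error below measures the spread between these libraries, which may be technical.

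C1q is the recognition unit of the classical complement pathway. Its A, B and C chains, made from C1qa, C1qb and C1qc, form a bundle that binds antibody complexes and dying cells and activates the bound proteases C1r and C1s. Most complement proteins come from the liver, whereas C1q comes mainly from macrophages and dendritic cells. Apoe encodes apolipoprotein E, which carries cholesterol and other lipids between cells and is taken up through receptors of the LDL receptor family. Lyz2 encodes lysozyme M, an enzyme of macrophages, monocytes and neutrophils that cuts bacterial cell walls. Spp1 encodes osteopontin, a secreted protein that binds integrins and CD44. Aif1 encodes the actin-binding protein IBA1, a common marker of macrophages and microglia. In tumours, macrophages rich in C1q and macrophages rich in Spp1 have been described as different states.

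The genes lie at 5 places in the genome (build mm10), and each is annotated as protein coding. C1qb (ENSMUSG00000036905, chromosome 4, 136880129 to 136886187), C1qc (ENSMUSG00000036896, chromosome 4, 136889804 to 136893065) and C1qa (ENSMUSG00000036887, chromosome 4, 136895917 to 136898803) lie side by side on the minus strand within 18675 bases. Apoe (ENSMUSG00000002985, chromosome 7, 19696109 to 19699188), Lyz2 (ENSMUSG00000069516, chromosome 10, 117277331 to 117282321) and Aif1 (ENSMUSG00000024397, chromosome 17, 35170991 to 35176068) are on the minus strand and Spp1 (ENSMUSG00000029304, chromosome 5, 104435118 to 104441050) is on the plus strand. The upstream sequences of the genes are shown as a description. The genes were chosen for being high in the Tumor libraries, so nothing about shared control is read from that height. RefSeq promoters (GRCm38.p6) were matched for 6 of the 7 genes, and the 250 bases before each start were searched on both strands for AGGAAGT, a core bound by PU.1 and other ETS factors. It was found in 4 of the 6, namely C1qb, C1qc, Lyz2 and Spp1, and in 7.77% of 27025 promoters in the same table. The bases of these 4 windows that lie outside annotated exons are written 5′ to 3′ on the gene's strand, with the match in capitals (ACTTCCT is the same motif on the other strand).
C1qb chr4:136886201-136886450: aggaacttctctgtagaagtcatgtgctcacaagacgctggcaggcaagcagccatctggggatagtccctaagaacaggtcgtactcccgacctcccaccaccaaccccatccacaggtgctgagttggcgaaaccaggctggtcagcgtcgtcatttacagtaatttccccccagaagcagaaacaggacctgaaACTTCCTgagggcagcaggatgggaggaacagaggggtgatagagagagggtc
C1qc chr4:136893066-136893164: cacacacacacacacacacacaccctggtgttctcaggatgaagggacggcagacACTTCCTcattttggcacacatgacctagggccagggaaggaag
Lyz2 chr10:117282322-117282522: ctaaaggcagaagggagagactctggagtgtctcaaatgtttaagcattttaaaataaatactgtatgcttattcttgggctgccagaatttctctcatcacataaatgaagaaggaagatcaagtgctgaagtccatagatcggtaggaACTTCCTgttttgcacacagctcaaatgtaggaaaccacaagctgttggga
Spp1 chr5:104434861-104435110: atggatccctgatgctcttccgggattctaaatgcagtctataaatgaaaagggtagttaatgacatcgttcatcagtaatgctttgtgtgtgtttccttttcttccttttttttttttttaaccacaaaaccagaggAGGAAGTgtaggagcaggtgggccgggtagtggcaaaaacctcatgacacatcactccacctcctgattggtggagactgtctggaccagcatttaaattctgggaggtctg
The windows of Apoe and Aif1 did not hold these letters. The AP-1 motif TGANTCA was in 0 of the 6 windows (6.85% of all promoters), and the GC box GGGCGG was in that of C1qc alone (33.0% of all promoters). A match describes the letters in the window and is not evidence of binding.

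Total counts ran from 3054435 to 7747699 per library in Tumor and from 1676229 to 8412887 in WT. The libraries differed in ways beyond the group label. The summed level of 14 genes of T cells was 4721 to 6691 CPM (reads scaled to a common library size) in Tumor and 167 to 1553 in WT, with no overlap. Epithelial genes summed to 26724 and 35188 CPM in WT replicates 1 and 2, against 155 to 263 in the other WT libraries. In WT replicates 3, 4 and 5, 9.92%, 22.3% and 26.5% of reads fell on the repeat-like gene model Gm10800. Of 21414 genes tested, 340 (1.59%) were called by the quasi-likelihood test of edgeR at a Benjamini-Hochberg adjusted p below 0.05, of which 293 (1.37%) were higher in Tumor and 47 (0.219%) lower. Of the 7 genes of the sort markers, Cd3g, Il2ra and Cd3d were called higher. Cd3g was no longer called without Tumor replicate 2, Tumor replicate 3 or WT replicate 1 (edgeR adjusted p = 0.0574 to 0.0639), and Il2ra and Cd3d were called only when the library left out was WT replicate 4 or 5 (up to 0.138 and 0.147 otherwise). Foxp3 had a log2 fold change of 2.48 ± 0.64 (SE, edgeR adjusted p = 0.0560). Cd4, Cd3e and Ptprc did not pass by edgeR either (adjusted p = 0.0697, 0.0895 and 0.158). DESeq2 called all 7 sort markers higher, and limma voom called 6, all but Ptprc. In bulk libraries, fewer cells of a type and less RNA per cell cannot be told apart.

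Together the 7 genes took 0.124% to 0.583% of all reads in the Tumor libraries and 0.00133% to 0.00970% in the WT libraries. For each of the 7, the Tumor libraries were all above the WT libraries, a pattern seen in 937 (4.38%) of the 21414 tested genes. The choice of the genes used this contrast, so nothing is read from that count. All 7 passed the filter on low counts, and they did so through their Tumor reads. Values in single libraries below are CPM scaled by the trimmed mean of M values (TMM).

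The C1q chains were each found in all 5 Tumor libraries, at 33.2 to 413 CPM. C1qa stood at 116, 356, 109, 80.8 and 413 CPM in Tumor replicates 1 to 5 and at 3.04, 7.74, 0, 8.37 and 2.27 CPM in WT replicates 1 to 5. Tumor replicates 2 and 5 were the high ones, and the lowest Tumor library was 9.65 times the highest WT library. Means were 215 ± 157 CPM for Tumor and 4.28 ± 3.63 for WT (SD, n = 5 each), with a log2 difference of 5.61 ± 0.89 (SE). The 0 in WT replicate 3 is a count of 0 in 1676229 reads, which allows up to 1.41 CPM (3 counts), and covers counting error only.

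C1qb stood at 72.8, 346, 104, 120 and 244 CPM in Tumor and at 2.11, 7.19, 0.939, 13.8 and 2.72 CPM in WT. Replicates 2 and 5 were again highest in Tumor, and the log2 difference was 5.03 ± 0.78 (SE). C1qc stood at 33.2, 231, 78.7, 88.9 and 153 CPM in Tumor and at 3.28, 10.5, 6.10, 18.9 and 7.26 CPM in WT. Its log2 difference of 3.66 ± 0.65 was the smallest of the 7, and its lowest Tumor library (replicate 1) was 1.75 times its highest WT library (replicate 4).

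Apoe had the highest level of the 7. It stood at 691, 4001, 1200 and 759 CPM in Tumor replicates 1 to 4 and at 3182 in replicate 5, and at 8.42, 52.9, 0, 33.1 and 2.27 CPM in WT. Tumor replicates 2 and 5 were high, as for C1q. WT replicate 3 held no Apoe read. The means were 1967 ± 1524 CPM (SD, n = 5) and 19.3 ± 22.9 CPM, with a log2 difference of 6.65 ± 1.28 (SE), ranked 3 among the 21414 tested genes.

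Lyz2 followed another order among the Tumor libraries. It stood at 401, 976, 202, 859 and 1215 CPM in Tumor and at 0.468, 19.1, 31.5, 12.7 and 3.63 CPM in WT. Tumor replicate 4, where C1qa was lowest, was among the 3 highest for Lyz2, and the log2 difference was 5.76 ± 1.01 (SE). Lyz2 shares sequence with its neighbour Lyz1, the lysozyme of Paneth cells. In all, 15.4% of its 50-base stretches and 1.97% of its 100-base stretches occur in transcripts of other genes too, with Lyz1 sharing the most. Lyz1 had 0 to 7 reads per Tumor library, while in WT replicate 3 it had 94 reads against 67 for Lyz2. How reads that fit both genes were counted is not given in the sources used here.

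Spp1 varied most among the Tumor libraries, at 12.6, 64.6, 12.99, 272 and 87.2 CPM in replicates 1 to 5, a 21.5-fold range. In WT it stood at 0.468, 0.138, 0.469, 5.46 and 4.54 CPM, which is 1 to 15 reads per library. Tumor replicate 4 was far above the other 4 Tumor libraries. The log2 difference was 5.40 ± 1.05 (SE), and 4.41 without Tumor replicate 4. The gene model Gm42793 overlaps Spp1 on the same strand, but held 0 to 5 reads per library.

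Aif1 varied least. It stood at 31.8, 62.6, 27.8, 23.3 and 56.0 CPM in Tumor, a 2.69-fold range, and at 0, 0.691, 0.469, 2.91 and 1.81 CPM in WT. WT replicate 1 held no Aif1 read and the other WT libraries 1 to 8 reads. The log2 difference was 5.12 ± 0.86 (SE).

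**Figure D1:**
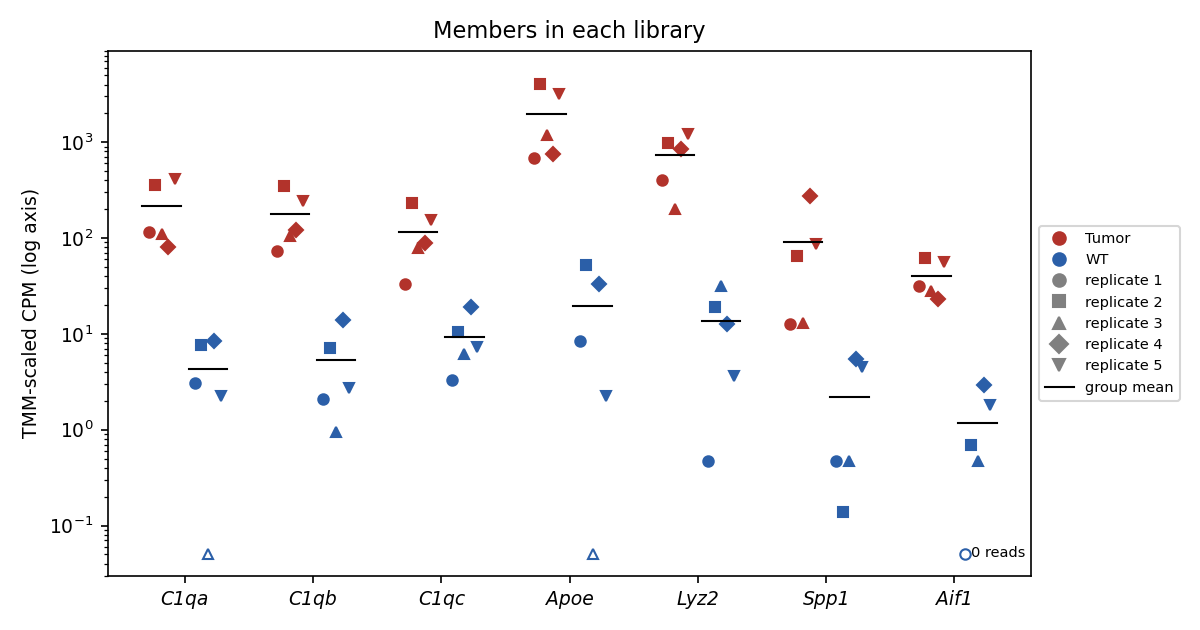
TMM-scaled CPM (log axis) of the 7 genes in each library, Tumor in red and WT in blue, with the replicate number given by the symbol and the group mean by a bar; open symbols at the bottom are libraries with 0 reads. For each gene the 5 Tumor libraries sit above the 5 WT libraries, and for Spp1 Tumor replicate 4 (272 CPM) is the highest library.

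Per kilobase of gene length, which allows levels to be compared between genes, the Tumor order was Apoe (920 ± 713 CPM per kilobase, SD, n = 5), Lyz2 (555 ± 318), C1qa (207 ± 151), C1qb (163 ± 105), C1qc (60.6 ± 39.8), Spp1 (54.5 ± 64.8) and Aif1 (26.3 ± 11.6). Neighbours in this order overlapped in their spread between libraries. Among 16773 protein coding genes ranked by mean level per kilobase in Tumor, Apoe was at rank 45 and Lyz2 at 81, while Aif1 was at 1628. In WT the same genes ranked from 2782 (Lyz2) to 16666 (Aif1).

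The 7 genes did not keep fixed proportions within the Tumor libraries. Apoe made up 44.1 ± 12.99% of their summed level per kilobase (SD, n = 5) and Lyz2 29.5 ± 11.9%, and the C1q chains C1qa, C1qb and C1qc 10.3 ± 3.0%, 8.31 ± 1.12% and 3.07 ± 0.837%. Set against the summed C1q level per kilobase, Apoe stayed within a 1.58-fold range, at ratios of 1.65, 2.40, 2.32, 1.51 and 2.13 in replicates 1 to 5. Aif1 over C1q stayed within a 2.03-fold range. Lyz2 over C1q spanned 4.38-fold, with ratios of 1.56, 0.9501, 0.636, 2.78 and 1.32. Spp1 over C1q was 0.0392, 0.0502, 0.0326, 0.704 and 0.0755, a 21.6-fold range that rests on Tumor replicate 4. In that library Lyz2 took 45.9% of the summed level, Apoe 25.0% and Spp1 11.6%.

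**Figure D2:**
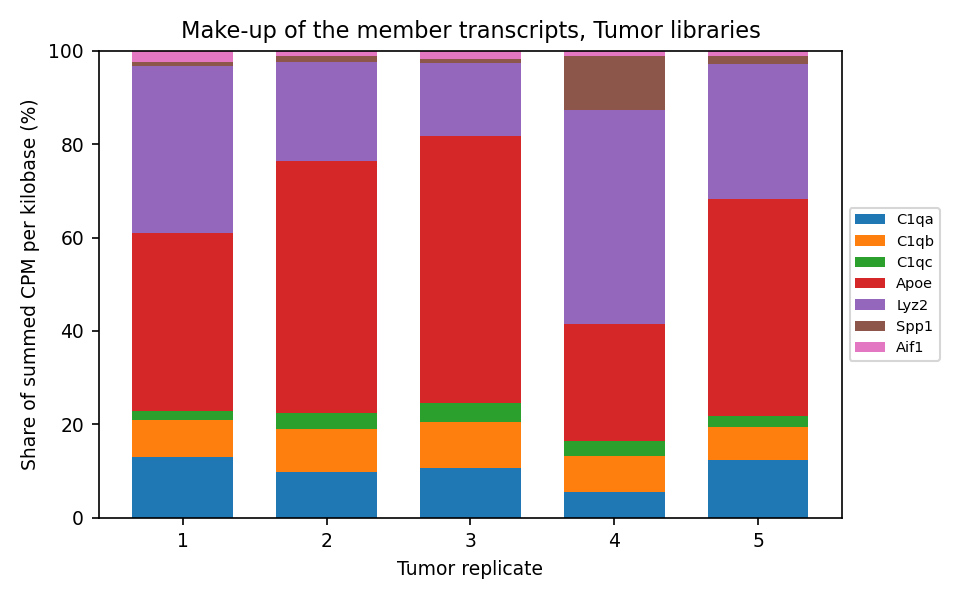
Share of each gene in the summed CPM per kilobase of the 7 genes, 1 bar per Tumor library. Apoe takes 25.0% to 57.1% of each bar and Lyz2 15.6% to 45.9%, and Spp1 is visible as a broad band (11.6%) in replicate 4 alone.

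Neutrophils also transcribe Lyz2, and their marker genes were uneven across the Tumor libraries. The 11 neutrophil genes summed to 64.1, 118, 114, 407 and 1801 CPM in Tumor replicates 1 to 5 and to 66.8 to 168 in WT. Epithelial genes summed to 129, 45.5, 1198, 2163 and 5607 CPM in the same Tumor libraries. Replicates 4 and 5 were the highest for both lists and for Spp1, and were among the 3 highest for Lyz2. The part of these cells in the Lyz2 and Spp1 levels was not tested.

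Among the C1q reads, C1qc took a larger share in WT than in Tumor. C1qc gave 14.9% to 30.7% of C1q reads in Tumor libraries, each from 790 to 3529 C1q reads, and 38.9% to 86.7% in WT libraries, from 15 to 184 C1q reads. In Tumor replicate 5, the deepest for C1q, the share was 18.9% (95% exact Clopper-Pearson interval 17.6% to 20.2%), and in WT replicate 2, the deepest WT library for C1q, it was 41.3% (34.1% to 48.8%). In WT replicate 3, 13 of the 15 C1q reads were from C1qc (59.5% to 98.3%). Amplification copies count as reads here, so the intervals cover counting error only. The groups did not overlap in this share, a measure from the same contrast as the choice of genes, and no test was made.

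The other macrophage genes gave a mixed picture. Of 32 listed macrophage genes that are not among the 7, 29 had enough reads to test, and 4 (13.8%) were called higher in Tumor and 0 lower (edgeR, as above), against 1.37% of all tested genes called higher. Unadjusted p was below 0.05 for 14 of the 29. Their median log2 fold change was 1.55, against -0.20 for all tested genes, and 22 were positive. The summed level of the list was 1246 to 2575 CPM in Tumor and 500.1 to 849 in WT, and none of its genes was at 0 in every library of a group.

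The 4 calls were Fcgr3, Tyrobp, Fcer1g and Lgmn. Fcgr3, an activating receptor for IgG, stood at 28.4, 77.1, 52.3, 21.3 and 75.0 CPM in Tumor and at 1.87, 4.97, 3.76, 2.91 and 5.44 CPM in WT. Tumor replicates 2 and 5 were high, as for C1q, and Fcgr3 rose by a log2 fold change of 3.74 ± 0.62 (SE, edgeR adjusted p = 0.00612). Tyrobp, the adaptor DAP12 of many myeloid receptors, rose by 3.24 ± 0.66 (edgeR adjusted p = 0.0187), from 14.1 ± 13.04 to 132 ± 60.3 CPM (SD, n = 5). Fcer1g, the common Fc receptor gamma chain, rose by 3.71 ± 0.86 (edgeR adjusted p = 0.0336). Lgmn, the lysosomal protease legumain, rose by 2.52 ± 0.56 (edgeR adjusted p = 0.0274). Genes of T cells were higher in the same libraries, with 8 of 14 called and a list median of 2.86, and their part in these calls was not tested beyond the scaling given next.

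These calls depended on single libraries and on the scaling. Fcgr3 stayed called in 10 of 10 fits that left out 1 library. Tyrobp was lost without Tumor replicate 2, Tumor replicate 3 or WT replicate 1 (edgeR adjusted p = 0.0677, 0.0541 and 0.0711). Lgmn and Fcer1g were lost without any 1 of the Tumor replicates and without WT replicate 1 (edgeR adjusted p = 0.0547 to 0.0967 for Lgmn and 0.0568 to 0.0993 for Fcer1g). With each library scaled to its T cell genes, a choice made after seeing the data, none of the 4 was called: Fcgr3 0.34 ± 1.01, Tyrobp 0.42 ± 0.81, Fcer1g 0.20 ± 1.06 and Lgmn -1.05 ± 0.77 log2 units (SE). On that scale the median of all tested genes was -3.71, with 18 genes called higher and 19655 lower. All 4 genes lay above that median.

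Other genes that define macrophages, named here after their values were seen, did not pass by edgeR. DESeq2 called 9 genes of the list higher and 0 lower, with Cd68, Axl, Cx3cr1 and Hmox1 among them. By limma voom the calls were Fcgr3, Tyrobp, Lgmn and Fcer1g. Adgre1, the F4/80 antigen, stood at 16.3, 7.04, 3.90, 19.9 and 13.1 CPM in Tumor and at 7.96, 10.1, 6.57, 19.3 and 9.07 CPM in WT, with groups that overlapped (0.18 ± 0.73, edgeR adjusted p = 0.921, and -0.04 to 0.55 when 1 library was left out). Csf1r, the receptor for the macrophage growth factor CSF1, had a log2 fold change of 1.55 ± 0.59 (edgeR adjusted p = 0.210), and its highest Tumor libraries were replicates 2 and 5 (94.9 and 76.6 CPM). Mertk, a receptor for uptake of dying cells, had -0.63 ± 0.69 (edgeR adjusted p = 0.671). Cd68, a lysosomal glycoprotein, had 2.48 ± 0.63 (edgeR adjusted p = 0.0529), and each Tumor library was above each WT library. Spi1, which encodes PU.1, had 1.63 ± 0.64 (edgeR adjusted p = 0.218). Fcgr1, Folr2 and Vsig4 had too few reads to test. The sum of the 7 genes was 0.994 to 2.27 times the sum of this list in Tumor libraries and 0.0266 to 0.138 times in WT libraries. The 7 were chosen for being high in these Tumor libraries, so nothing is read from the higher ratio there.

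**Figure D3:**
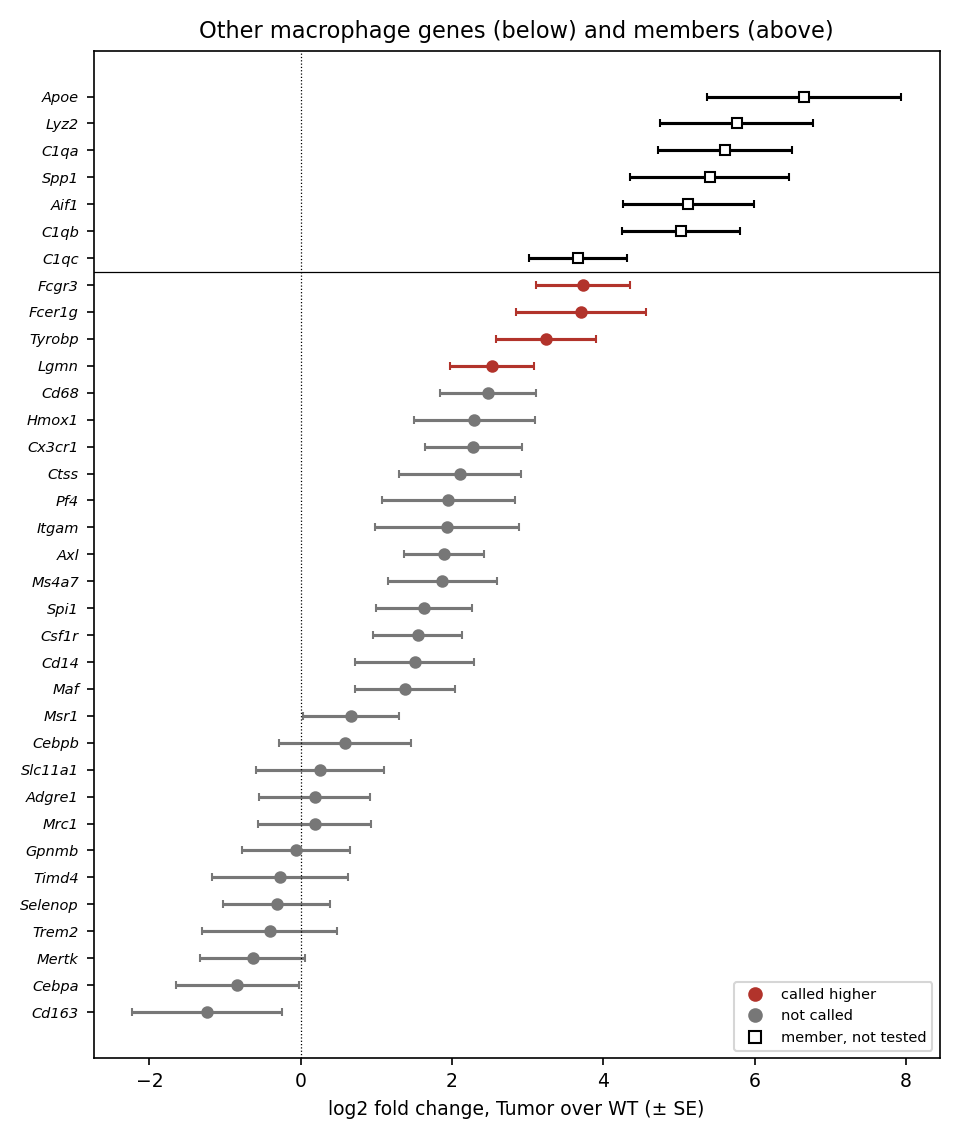
Log2 fold change of Tumor over WT with its SE (bars, n = 5 libraries per group) for the 7 genes (open squares, described without a test) and for tested macrophage genes of the list (circles, red where called higher by edgeR), 1 of which is not shown. The 7 genes, chosen for this contrast, span 3.66 to 6.65. The genes of the list that are shown span -1.24 to 3.74, with 4 of them called. Because of that choice, nothing is read from the higher values of the 7.

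Few markers of other cells that the sort could hold were called. By edgeR, none of the tested genes of neutrophils, dendritic cells, mast cells, B cells, plasma cells, epithelium or stroma was called in either direction. Of all tested genes 1.59% were called, so nothing is read from 0 calls in lists this short. Unadjusted p was below 0.05 for 2 of 10 neutrophil, 2 of 9 dendritic cell and 5 of 14 epithelial genes and for 0 of the others. In these lists DESeq2 called S100a8 and Xcr1 higher and Ngp, Fabp2 and Car1 lower, and limma voom called S100a8 higher. Of 10 monocyte genes edgeR called 1 higher, Ms4a6c, against 1.37% of all tested genes, and unadjusted p was below 0.05 for 5 of the 10. DESeq2 and limma voom each called Ms4a6c, Ccr2 and Ifitm3 higher. These genes are named after their values were seen. Summed monocyte genes overlapped between the groups, at 649 to 1049 CPM in Tumor and 191 to 1324 in WT. WT replicate 3 stood apart in its plasma cell genes (a summed level of 17302 CPM), followed by Tumor replicate 1 (2925) and WT replicate 4 (1910), with 22.6 to 198 CPM elsewhere. Dendritic cell genes, whose cells also make C1q, summed to 151 to 372 CPM in Tumor and 52.2 to 381 in WT.

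**Figure D4:**
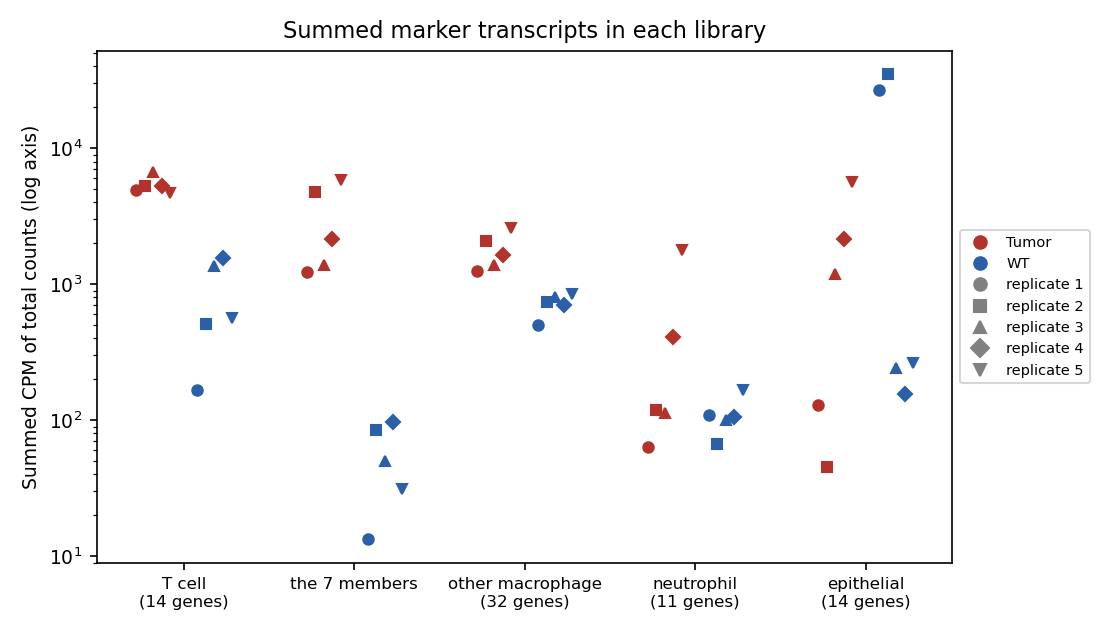
Summed CPM of total counts (log axis) for T cell genes, the 7 genes, the 32 other macrophage genes, neutrophil genes and epithelial genes, 1 point per library. T cell genes, the 7 genes and the other macrophage genes each sit higher in the 5 Tumor libraries than in the 5 WT libraries, and epithelial genes are highest in WT replicates 1 and 2.

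Reads of the 7 genes were then set against T cell reads of the same library, because T cell genes also differed between the groups. As reads per 100 reads of the geometric mean of the 14 T cell genes, Apoe was 209 to 1246 in Tumor and 0 to 139 in WT, with no overlap. C1qb was 19.7 to 95.4 in Tumor and 1.57 to 18.9 in WT, also with no overlap. For the other 5 genes the groups overlapped on this scale. The share of all tested genes without overlap on this scale was not computed. The 7 genes were chosen for this contrast, and C1qa and C1qb fell on either side by little, so nothing is read from the split. C1qa was 20.6 to 162 against 0 to 21.1, and Lyz2 38.1 to 476 against 3.25 to 52.7. C1qc was 10.04 to 59.9 against 10.2 to 31.8, Spp1 2.45 to 78.5 against 0.364 to 19.9, and Aif1 5.24 to 21.9 against 0 to 7.94. The low Tumor end was replicate 3 for C1qa, C1qb, Lyz2, Spp1 and Aif1, and replicate 1 for C1qc and Apoe. Fitted log2 differences were then 2.47 for C1qa, 2.08 for C1qb, 0.60 ± 0.86 (SE) for C1qc, 3.58 for Apoe, 3.05 for Lyz2, 2.29 for Spp1 and 2.22 for Aif1, where the median of all tested genes was -3.71. The genes used for this scaling were chosen with these data known, so it is given as an alternative scale only.

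The sizes of the differences of the 7 genes were also taken with the WT libraries that stood apart left out. For each gene every Tumor library was above every WT library, so leaving out WT libraries could hardly remove the difference. Only its size is described. Without WT replicates 1 and 2, which were rich in epithelial reads, the log2 differences ran from 3.42 (C1qc) to 7.31 (Apoe). Without WT replicates 3, 4 and 5, which were rich in Gm10800 reads, they ran from 4.002 (C1qc) to 8.25 (Spp1).

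Partners of C1q in the complement system were counted in the same way. Of 38 listed complement genes 30 could be tested. By edgeR 0 were called in either direction, against 1.59% of all tested genes. At that share, 0 calls among 30 genes are not read as a result about the list. Unadjusted p was below 0.05 for 6 of the 30, and the median log2 fold change was -0.53. DESeq2 called Cfp higher and Cfi lower, and limma voom called Cfp higher. C1ra, the protease that C1q activates, stood at 3.39 ± 2.27 CPM in Tumor and 11.6 ± 13.9 CPM in WT (SD, n = 5), with a log2 fold change of -1.77 ± 0.99 (edgeR adjusted p = 0.384) and -2.13 to -0.75 when 1 library was left out. WT replicate 3 held 35.2 CPM of C1ra, the highest of the WT libraries. C1rb, C1s1, C1s2 and C2 had too few reads to test. The most abundant listed genes were Calr, a chaperone that also binds C1q (1.17 ± 0.70, edgeR adjusted p = 0.417), and C1qbp, a mitochondrial protein that binds C1q (-0.08 ± 0.68, edgeR adjusted p = 0.965, and -0.36 to 0.67 when 1 library was left out). Cfp, which encodes properdin, a stabiliser of the alternative pathway, was the only listed gene with every Tumor library above every WT library (36.4 ± 15.2 against 5.58 ± 5.50 CPM, 2.72 ± 0.75, edgeR adjusted p = 0.0770). That pattern was seen in 4.38% of all tested genes, so nothing is read from 1 such gene in this list. C1ra, C1rb, C1s1, C1s2, C2, Cfi and Cfp are named after their values were seen.

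Among 28 genes of Apoe partners and lipid handling, 27 could be tested and 1, Tyrobp, was called higher, against 1.37% of all tested genes, with a list median of 0.25. Unadjusted p was below 0.05 for 4 of the 27. Npc2, the next most abundant and a lysosomal cholesterol carrier, had 1.32 ± 0.75 (edgeR adjusted p = 0.392). Apoc1, a lipoprotein gene 3449 bases from Apoe that macrophages also transcribe, stood at 1.35 ± 1.78 CPM in Tumor and 7.30 ± 9.40 CPM in WT and did not pass (-2.36 ± 1.19, edgeR adjusted p = 0.340). Fits that left out 1 library gave -2.96 to -1.17. Trem2, a lipid receptor of macrophages that signals through Tyrobp, had -0.41 ± 0.89 (edgeR adjusted p = 0.850). Its direction turned with single libraries, from -0.69 to 1.28 when 1 was left out, and WT replicate 5 held 75.7 CPM against 2.82 to 13.5 in the other WT libraries. Lrp1, a receptor that takes up Apoe, was lower in every Tumor library than in every WT library and did not pass (57.1 ± 10.5 against 121 ± 23.3 CPM, -1.09 ± 0.47, edgeR adjusted p = 0.263). Trem2 and Lrp1 are named after their values were seen.

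Of 19 tested lysosomal and lysozyme-family genes, 1, Lgmn, was called higher and 0 lower, against 1.37% and 0.219% of all tested genes, with a list median of 1.22 and unadjusted p below 0.05 for 9. The most abundant were Laptm5, a lysosomal membrane protein of blood cells (2.88 ± 0.79, edgeR adjusted p = 0.0743), and Ctss, the protease cathepsin S (2.10 ± 0.81, edgeR adjusted p = 0.212). In both, every Tumor library was above every WT library. T cells transcribe Laptm5 too, so the list is not particular to macrophages.

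Of 15 tested receptors, relatives and cleaving enzymes of osteopontin, 2 were called higher and 0 lower, against 1.37% and 0.219% of all tested genes, with a list median of 0.97 and unadjusted p below 0.05 for 6. Mmp9, a secreted protease that cleaves osteopontin, rose by 4.50 ± 0.63 (SE, edgeR adjusted p = 0.00341), from 5.36 ± 4.04 to 122 ± 41.5 CPM. Itgb3, a chain of the integrin that binds osteopontin, rose by 3.09 ± 0.60 (edgeR adjusted p = 0.0153), from 19.0 ± 9.30 to 161 ± 86.1 CPM. Mmp9 stayed called in 10 of 10 fits that left out 1 library, and Itgb3 was lost without Tumor replicate 3 or WT replicate 1 (edgeR adjusted p = 0.0610 and 0.0659). With T cell scaling neither was called (1.07 ± 0.90 and -0.23 ± 0.75), where the median of all tested genes was -3.71. Cd44, the most abundant receptor of the list and a receptor of T cells as well, had 1.82 ± 0.68 (edgeR adjusted p = 0.204), and Itgb1, an integrin chain of most cells, had 1.44 ± 0.57 (edgeR adjusted p = 0.224).

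Genes listed for the macrophage states rich in C1q and in Spp1 were then counted. Of 14 tested genes of the first list, 0 were called in either direction by edgeR, against 1.59% of all tested genes. Unadjusted p was below 0.05 for 4, and the median was 0.22. By limma voom 0 were called, and by DESeq2 2 were called higher. Its most abundant genes, the membrane protein gene Cd81 and the selenium carrier gene Selenop, had 1.05 ± 0.66 and -0.32 ± 0.71 (edgeR adjusted p = 0.438 and 0.853), and Selenop ran from -0.61 to 0.50 when 1 library was left out. Summed levels of this list overlapped, at 328 to 782 CPM in Tumor and 203 to 584 in WT. Of 15 tested genes of the second list 4 were called higher and 0 lower, against 1.37% and 0.219% of all tested genes, with a median of 1.39. They were Hilpda, a lipid droplet protein induced by low oxygen (4.58 ± 0.86, edgeR adjusted p = 0.0131), the neutrophil-attracting chemokine gene Cxcl2 (4.38 ± 0.89, 0.0190), Il1b, which encodes interleukin-1 beta (4.46 ± 0.95, 0.0226), and the metalloproteinase gene Adam8 (2.22 ± 0.48, 0.0255).

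The second list summed to 1096 to 2072 CPM in Tumor and 235 to 523 in WT. Of its called genes, Hilpda, Cxcl2 and Il1b had SDs of 89.3, 139 and 104 CPM around Tumor means of 313, 336 and 316. The SD of Spp1 (107) exceeded its mean (89.8), with Tumor replicate 4 at 272 CPM and the other Tumor libraries at 12.6 to 87.2. A call favours genes that vary little within a group, so nothing is read from this difference in spread. Hilpda stayed called in 10 of 10 fits that left out 1 library. Cxcl2 was lost without Tumor replicates 2 or 3 or WT replicate 1 (edgeR adjusted p = 0.0547 to 0.0677), and Il1b and Adam8 were each lost without Tumor replicates 1, 2, 3 or 4 or WT replicate 1 (edgeR adjusted p = 0.0523 to 0.0729 and 0.0669 to 0.106). With T cell scaling Cxcl2 stayed called (1.74 ± 0.80, edgeR adjusted p = 0.0414) and Hilpda, Il1b and Adam8 were not called higher (1.01 ± 0.85, 1.09 ± 0.91 and -1.21 ± 0.75). The median of all tested genes was -3.71 on that scale. The difference between the 2 lists was not tested.

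Of the 20 nearest protein coding neighbours, 2 on each side of the 5 loci, 17 could be tested and 1 was called, against 1.59% of all tested genes called in either direction. Ltb, lymphotoxin beta, 18371 bases from Aif1 and a gene of lymphocytes, rose by 3.90 ± 0.71 (SE, edgeR adjusted p = 0.0102). It stayed called in 10 of 10 fits that left out 1 library. Lst1, a leukocyte gene between Aif1 and Ltb, had 2.75 ± 0.75 (edgeR adjusted p = 0.0703), with every Tumor library above every WT library. On either side of the C1q genes, Ephb2 and Epha8, which encode ephrin receptors, had -1.07 ± 0.58 and -1.73 ± 0.76 (edgeR adjusted p = 0.370 and 0.270). Tomm40, a mitochondrial import gene 2125 bases from Apoe, had -0.33 ± 0.50 (edgeR adjusted p = 0.768), and Cpsf6, an RNA processing gene near Lyz2, had -0.00 ± 0.48 (0.999). Yeats4, on the other side of Lyz2, had 1.61 ± 0.79 (edgeR adjusted p = 0.328). Its Tumor libraries, at 25.7 CPM or more, were all just above its WT libraries, at 25.2 CPM or less. Such separation was seen in 4.38% of all tested genes.

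**Figure D5:**
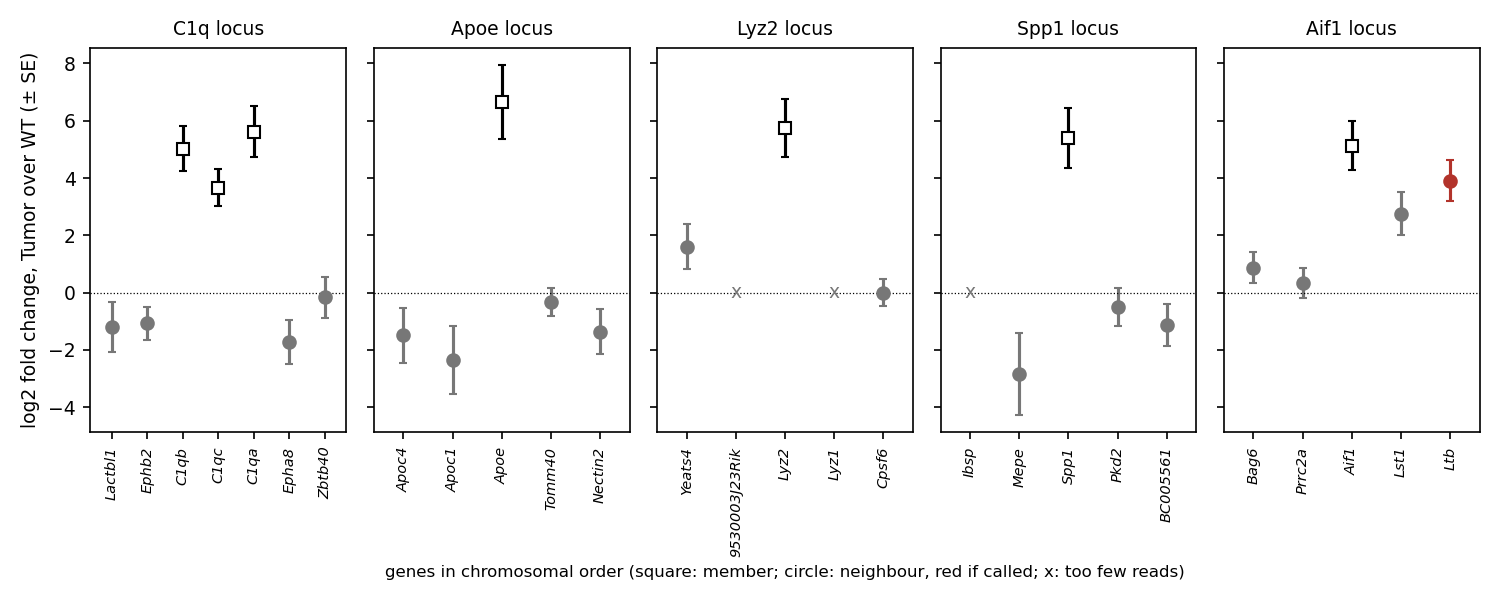
Log2 fold change of Tumor over WT with its SE for the genes at the 5 loci in chromosomal order, with the 7 genes as open squares, tested neighbours as circles (red where called by edgeR) and neighbours with too few reads as crosses. The 7 genes lie at 3.66 or above, and of the neighbours Ltb alone is called.

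Genes whose profile lay nearest to C1q were found by the root mean square (RMS) difference of centred log2(CPM + 1) values from the mean of C1qa, C1qb and C1qc, among 12455 protein coding genes that averaged 10 CPM or more. Over all 10 libraries Aif1 was nearest (0.605), followed by Rapsn, Flna, Capg, Ifitm1, Mmp9, Ccr1, Il1r2, Itgb7 and Sit1 (0.630 to 0.879), against a median of 2.54 for all genes. Several of these are genes of T cells, such as Itgb7, an integrin chain for homing to the gut, and Sit1, an adaptor of T cell receptor signalling. Fcgr3 and Fcer1g were at ranks 30 and 35, Lyz2 at 371 and Apoe at 770. The step between the groups enters this measure.

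Within the 5 Tumor libraries alone, where that step has no part, the order was another one. The nearest genes were Csad (0.0782), Ackr3, Olfr887, Lipe, Brip1, Fat4, Decr1, Hadh, Cd36 and 1520401A03Rik (0.128 to 0.208), against a median of 1.09. These were low in Tumor, at means of 7.05 to 43.4 CPM, and the measure rests on 5 values per gene. Apoe was at rank 28 (0.271), Fcer1g at 66, Csf1r at 80, Lgmn at 94 and Aif1 at 168, while Lyz2 was at 1417 and Spp1 at 10247 (1.54). Apoe thus lay near C1q across the tumour libraries. Spp1 lay farther from C1q than the median gene, with Tumor replicate 4 standing apart. Spp1 over C1q per kilobase was 0.704 in that library and 0.0326 to 0.0755 in the other Tumor libraries. The RMS difference of Spp1 without replicate 4 was not computed.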

How the data were processed

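RNA was measured by Smart-seq2 in 10 libraries of sorted colon Tregs, grouped by sample title into 5 Tumor and 5 WT. The deposited values are raw read counts per gene for 54532 genes. Per the submitters' processing notes the tools were HISAT2 2.0.5 and featureCounts 1.5.0-p3 on mm10. The annotation release, strand setting and handling of reads that fit several genes are not given in the sources used here. The library kit was transposase based, per the labels' protocols.

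The fit used R 4.3.3 and edgeR 4.0.16 on all genes kept by filterByExpr (minimum count 10, minimum total 15), with TMM scaling, a robust quasi-likelihood F test (2-sided) and Benjamini-Hochberg adjustment, calling genes at an adjusted p below 0.05. It was tested on simulated data. A gene that did not pass is not shown to be unchanged. The SE is the size of a log2 fold change divided by the square root of F, and marker sums use total counts. The 17 gene lists hold 263 names, of which Ero1a was not matched. The values of 1 listed gene are not reported here. The 7 genes, the lists and the rule for named genes (the 7, the sort markers, up to 3 called and the 2 most abundant genes per list, the nearest neighbours and the 10 genes of most similar profile) were chosen with earlier results of these data known. Other settings numbered 17, with 3 more chosen after seeing the data (T cell scaling and 2 sets of WT libraries left out). DESeq2 1.42.0 and limma voom 3.58.1 were among them. All 45 pairs of libraries differed by more than counting noise (chi-square at least 25.7 times its degrees of freedom).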

Additional observations from a re-analysis of the deposited data

Results flagged for a closer look

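Of 20 sets of 5 libraries examined, 3 held a library far from the others (the gap to its nearest neighbour exceeded 0.71 of the whole range). This cutoff flags about 1 in 20 sets only for independent sets of normally distributed values. These were unlogged levels and ratios, and some sets share the same counts, so the 3 flags are not weighed against that rate. Spp1 in Tumor replicate 4 was at 272 CPM, with a gap of 0.712 of the range. The ratio of Spp1 to C1q per kilobase was 0.704 in the same library, with a gap of 0.936. The ratio of Lyz2 to C1q per kilobase was 5.94 in WT replicate 3, with a gap of 0.883, from 67 Lyz2 reads and 15 C1q reads.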

How the results depend on the processing

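The log2 difference of each of the 7 genes kept its sign under all 20 alternatives, although C1qc with T cell scaling (0.60 ± 0.86, SE) lay within 1 SE of 0. Leaving out libraries could hardly turn the sign, because for each gene every Tumor library was above every WT library. Across the fits that left out 1 library the difference was 5.25 to 5.99 for C1qa, 4.61 to 5.73 for C1qb, 3.23 to 4.10 for C1qc, 6.20 to 7.45 for Apoe, 5.41 to 6.34 for Lyz2, 4.41 to 6.17 for Spp1 and 4.73 to 5.82 for Aif1. Without WT replicates 3, 4 and 5, Aif1 moved to 6.52.

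Counts of called genes moved more, and the cause was not tested. Over all genes, 293 higher and 47 lower became 646 and 1593 with DESeq2, 211 and 59 with RLE factors, 222 and 47 without composition factors, 455 and 24 with voom, 479 and 341 with no filter, 243 and 66 with 10 CPM in 5 libraries, 18 and 19655 with T cell scaling, 1615 and 378 without WT replicates 1 and 2, and 696 and 629 without WT replicates 3, 4 and 5. Across fits that left out 1 library they were 63 to 350 and 2 to 72. The share of higher calls thus depends on the scaling. The median of all genes was -0.38 with RLE factors, -0.40 without composition factors, -0.70 with DESeq2 and 0.01 without WT replicates 3, 4 and 5.

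For the lists, the genes called higher were 0 for complement, 1 for Apoe partners, 2 for Spp1 partners, 1 for lysosome, 4 for macrophages, 0 for the C1q-rich state and 4 for the Spp1-rich state. Leaving out 1 library gave 0 to 1, 0 to 1, 1 to 2, 0 to 3, 1 to 5, 0 to 2 and 1 to 4, and no lower call in any list. Without a filter, complement moved to 1, lysosome to 3, macrophages to 7 and the C1q-rich state to 1. With DESeq2, complement moved to 1 higher and 1 lower, lysosome to 4, macrophages to 9 and the C1q-rich state to 2, and with voom complement moved to 1 and lysosome to 3. With T cell scaling, 26, 25, 8, 12, 12, 10 and 10 genes were called lower, in the order above, and 0 higher except 1 for the Spp1-rich state. Without WT replicates 1 and 2, complement moved to 1, Apoe partners to 4, lysosome to 11, macrophages to 8 and the C1q-rich state to 2, with 1 lower call for the Spp1-rich state. Without WT replicates 3, 4 and 5, complement moved to 2, Spp1 partners to 5, lysosome to 3, macrophages to 9 and the C1q-rich state to 2, with 1 lower call each for Apoe partners and the C1q-rich state.

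With the replicate number as a block, 138 genes were higher and 3 lower, with 0 Apoe partner, 1 Spp1 partner, 0 lysosome and 2 macrophage genes higher. No pairing by number was seen. Correlations of same-numbered libraries ran from -0.14 to 0.04, and 0 of the 5 Tumor libraries correlated best with its own number. The WT libraries differed widely in epithelial and Gm10800 reads, which could hide a shared effect, so this check cannot exclude pairing. WT libraries held 15 to 184 C1q reads each, which limits ratios among the C1q chains there.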
